A study of Mus musculus with 4 samples.

Results

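The 10 genes Gata6, Gata4, Sox17, Sox7, Foxa2, Pdgfra, Dab2, Lama1, Lamb1 and Afp, which mark the primitive endoderm, were followed in mouse embryonic stem (ES) cells with and without Snai1, through every Affymetrix probe set that the platform annotation assigned to one of them alone. A probe set is a group of short probes that together read 1 transcript. They had 27 probe sets of 45101 on the array, and 0 further probe sets named a member together with another gene. The comparison was between 2 groups of 2 arrays each: Snai1 knockout ES cells (titles KO.ES) and control ES cells (titles F/F.ES, genotype field control, although their source name also carries the words knock out). Snai1 encodes Snail, a zinc finger repressor of transcription. Both groups were grown with leukaemia inhibitory factor (LIF) on feeder cells and had no further treatment. The labels call the 2 arrays of a group biological replicates and give no strain, clone, passage or Cre for either group, so the tests measure only the spread between these samples.

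The primitive endoderm separates from the epiblast within the inner cell mass of the blastocyst. FGF4 from the neighbouring epiblast cells acts through FGF receptors and the MAP kinase cascade to raise the GATA factors, while Nanog represses them. The cells then become visceral endoderm, which takes up and secretes nutrients, and parietal endoderm, which lays down a thick basement membrane. ES cells correspond to the epiblast, and cultures in serum and LIF are known to hold some cells with primitive endoderm features.

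Values were log2 expression values, and background was read from 27 control probe sets for Bacillus transcripts, which spanned 2.91 to 4.77 over the 4 arrays. The 10 ES cell markers, with Pou5f1, Sox2 and Nanog among them, all lay above this range, and their mean level was 11.51 and 11.42 in knockout cells, against 11.11 and 11.22 in control cells. The feeder fibroblast markers averaged 7.39 in knockout replicate 1 and 6.79 in knockout replicate 2, against 7.56 in control replicate 1 and 6.97 in control replicate 2, and 20 of 23 lay above the Bacillus range on all arrays. Of these markers, 17 were higher in replicate 1 in both groups. The same held for 17 of 33 other genes of the extraembryonic endoderm. It also held for 3 of the 10 primitive endoderm genes and 4 of the 10 ES cell markers. The share over all probe sets is not given here. Snai1 itself, read by 1 probe set, was at 3.79 and 4.04 in knockout cells, against 4.41 and 4.69 in control cells, a log2 difference of -0.63 ± 0.16 (SE, limma adjusted p = 0.107), with all 4 values within the Bacillus range. The labels do not say whether that probe set lies in a deleted part of the gene. The 3' minus 5' gap of the Actb control probe sets, a measure of RNA integrity, was 1.11 and 0.80 in knockout cells, against 3.02 and 2.97 in control cells. That of Gapdh was 0.40 and 0.27 in knockout cells, against 1.24 and 1.48 in control cells. Both gaps separated the groups, so RNA integrity and the knockout cannot be told apart in the differences below.

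Most of the primitive endoderm probe sets gave little or no signal above background in either group. Of the 27 probe sets, 12 lay within the Bacillus range on all 4 arrays, 8 lay above it on some arrays and 7 on all arrays. Gata6, Gata4, Sox17, Sox7 and Afp had no probe set above the range on all arrays. The other 5 genes had at least 1, and Lamb1 had 3. The defining GATA and Sox factors were thus at or near background in both groups. In such bulk RNA, fewer cells of a type and less RNA per cell cannot be told apart.

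**Figure D1:**
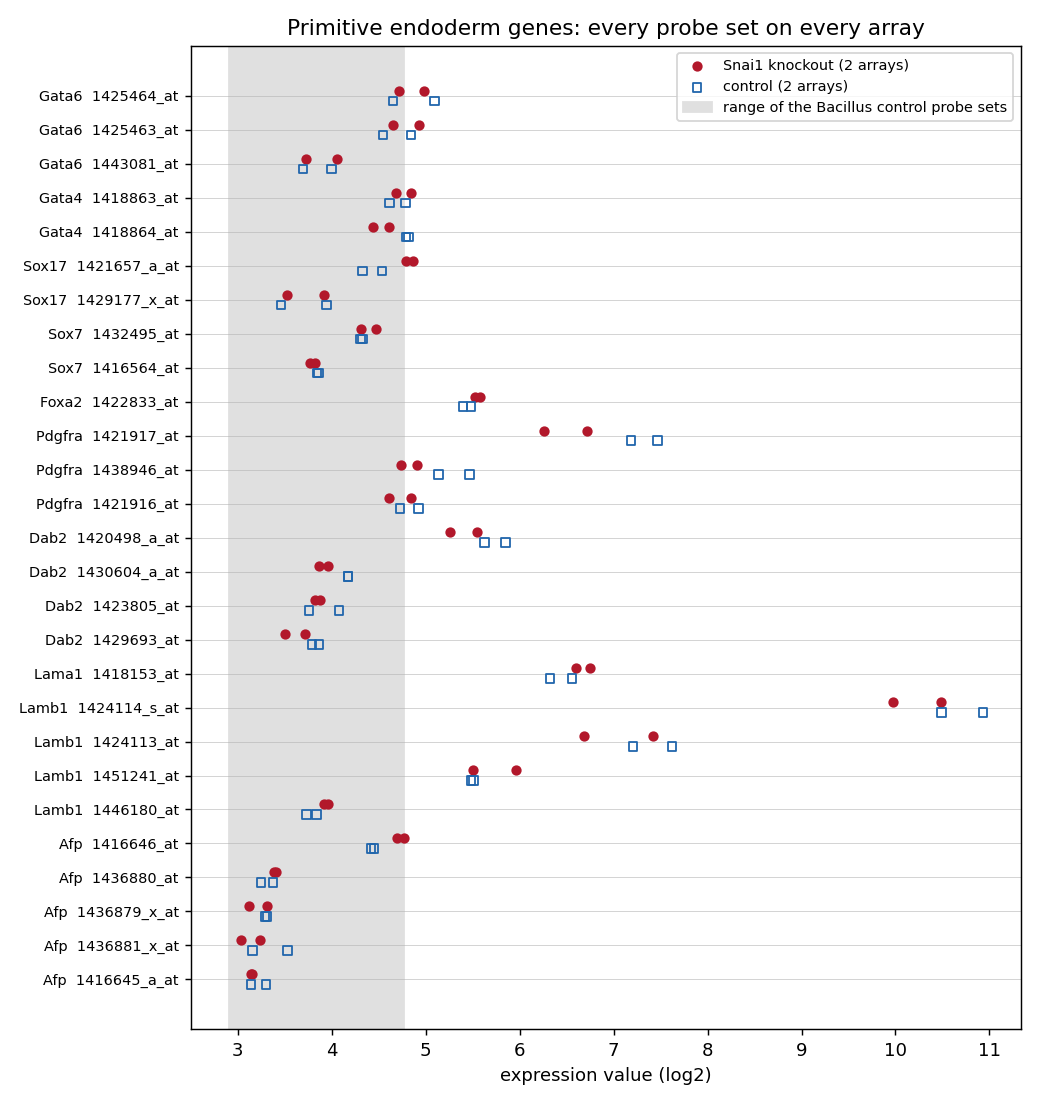
Expression value (log2) of all 27 probe sets of the 10 primitive endoderm genes on each array, with filled circles for the 2 Snai1 knockout arrays, open squares for the 2 control arrays and a grey band from 2.91 to 4.77 for the Bacillus controls. The GATA, Sox and Afp probe sets lie in or at the edge of the band, and Lamb1, Pdgfra and Lama1 have probe sets well to its right.

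None of the 27 probe sets passed an adjusted p of 0.05 between knockout and control in limma, against 0.546% of the 45037 probe sets tested (198 higher and 48 lower in the knockout). At an unadjusted p of 0.05, 3 of the 27 passed, 1 higher and 2 lower, or 11.1%, against 19.5% of all probe sets. Both knockout arrays lay above both control arrays for 6 of the 27 (22.2%, against 23.5% of all probe sets) and below them for 8 (29.6%, against 26% of all). These shares without overlap were near those of the whole array. The median log2 difference, knockout minus control, was -0.05 over the 27 probe sets and -0.01 over all probe sets. With each gene represented by its brightest probe set, again 0 of the 10 genes passed, against 4.14% of 18193 genes. The count over all probe sets depended on single arrays: leaving out knockout replicate 1, knockout replicate 2 or control replicate 2 brought it to 0, and leaving out control replicate 1 brought it to 173.

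For 24 of the 27 probe sets the 95% interval of the difference lay between -1 and 1 on the log2 scale. The 3 that reached below -1 were the brightest of Pdgfra and 2 of Lamb1. The interval excluded 0 for 1 probe set of Sox17 and 2 of Pdgfra, before any adjustment for the number of probe sets.

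**Figure D2:**
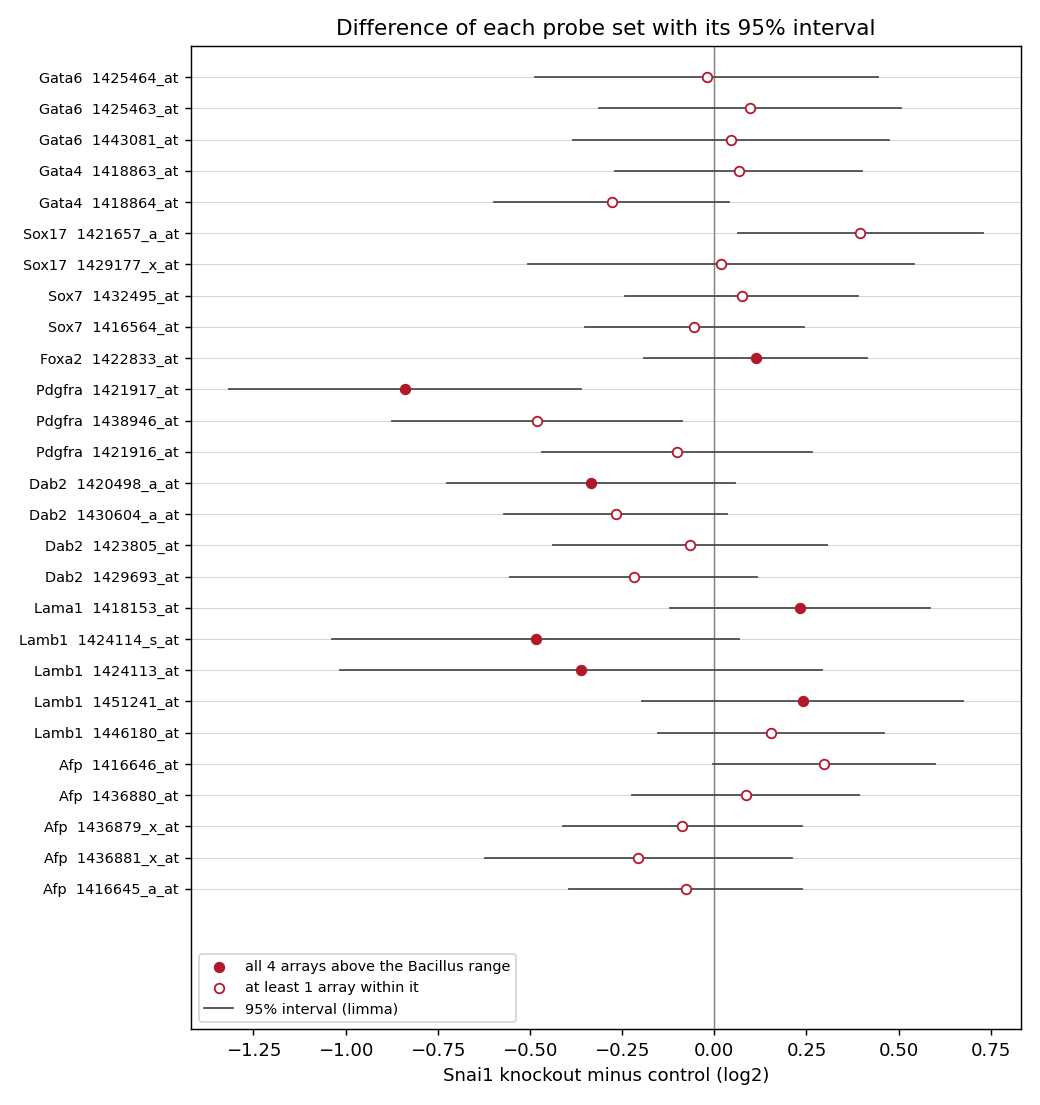
Log2 difference (Snai1 knockout minus control) of each of the 27 probe sets, with bars for limma's 95% interval, filled points where all 4 arrays lay above the Bacillus range and open points elsewhere. All but 3 intervals stay between -1 and 1, and the lowest point is the brightest Pdgfra probe set at -0.84.

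Among the transcription factors, Gata6, whose forced expression is known to turn ES cells into primitive endoderm, had its brightest probe set (1425464_at) at 4.72 and 4.98 in knockout cells, against 5.09 and 4.65 in control cells. The groups overlapped, with 1 array of each group within the Bacillus range, and the difference of -0.02 ± 0.19 (SE) was smaller than its error. The second probe set, at 4.65 and 4.93 in knockout cells, against 4.85 and 4.54 in control cells, and the third, within the Bacillus range on all arrays, differed by 0.10 and 0.05. The intervals of the 3 probe sets ran from -0.49 at the lowest to 0.51 at the highest.

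Gata4, a GATA factor that acts beside Gata6 and is kept in visceral and parietal endoderm, was at 4.84 and 4.69 in knockout cells, against 4.78 and 4.62 in control cells by its brighter probe set (1418863_at). Its other probe set (1418864_at) read 4.44 and 4.61 in knockout cells, against 4.79 and 4.82 in control cells. Here both knockout arrays lay below both control arrays, with a difference of -0.28 ± 0.13 (SE, adjusted p = 0.321), whereas the first probe set differed by 0.07 with overlapping groups. All these values lay in or just above the Bacillus range.

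Sox17 and Sox7, SoxF factors of the primitive endoderm that are also expressed in endothelium, were close to background. The brighter Sox17 probe set (1421657_a_at) was at 4.79 and 4.87 in the knockout arrays, just above the Bacillus range, and at 4.54 and 4.33 in the control arrays, within it. This was the largest positive difference among the 27 probe sets, at 0.40 ± 0.14 (SE), and it did not pass (adjusted p = 0.188). The other Sox17 probe set, whose suffix _x_at marks probes that may also bind other transcripts, was at 3.91 and 3.53 in knockout cells, against 3.94 and 3.46 in control cells, and differed by 0.02. Sox7 was within the Bacillus range on all arrays with both probe sets, which differed by 0.07 and -0.05.

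Foxa2, a forkhead factor of visceral and definitive endoderm, had 1 probe set, at 5.53 and 5.57 in knockout cells, against 5.48 and 5.40 in control cells. All 4 values lay above the Bacillus range and the groups did not overlap, yet the difference of 0.11 was within its standard error of 0.12 (adjusted p = 0.702).

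The receptor Pdgfra had the most negative difference of the set. Pdgfra encodes the alpha receptor for platelet-derived growth factor, an early surface marker of primitive endoderm that is also strongly expressed by embryonic fibroblasts. Its brightest probe set (1421917_at) was at 6.72 and 6.26 in knockout cells, against 7.47 and 7.19 in control cells, so both knockout arrays lay below both control arrays. The knockout mean was 6.49 ± 0.32, against a control mean of 7.33 ± 0.20 (SD, n = 2 each). The difference of -0.84 ± 0.20 (SE), a ratio of 0.559 with a 95% interval of 0.402 to 0.779, did not pass (limma adjusted p = 0.0916, and 0.0550 with each gene by its brightest probe set). With 1 array left out at a time it ran from -1.07 to -0.61.

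The second Pdgfra probe set (1438946_at) was at 4.91 and 4.73 in knockout cells, against 5.47 and 5.14 in control cells, again without overlap, and differed by -0.48 ± 0.16 (SE, adjusted p = 0.178). The third, at 4.84 and 4.60 in knockout cells, against 4.72 and 4.92 in control cells, overlapped and differed by -0.10. Within each group the brightest Pdgfra probe set was higher in replicate 1, as was the mean of the feeder fibroblast markers. The list of 23 fibroblast markers had a median difference of -0.21. In the fit of all probe sets 0 of 23 passed in either direction, against 0.546% of all probe sets. With each gene by its brightest probe set 1 of 23 passed, the chemokine gene Ccl2, higher in the knockout, against 4.14% of all genes. The fibroblast marker with the largest difference was the mesenchymal homeobox gene Prrx1. It was at 6.83 and 6.09 in knockout cells, against 8.02 and 7.39 in control cells (-1.24 ± 0.30, SE, limma adjusted p = 0.0973). The other 5 Prrx1 probe sets were in both directions. One was at 4.61 and 3.67 in knockout cells, against 5.65 and 4.77 in control cells (-1.07), and another at 5.62 and 5.18 in knockout cells, against 4.95 and 4.34 in control cells (0.76), both without overlap. The remaining 3 differed by -0.11, -0.03 and 0.11. The parts of feeder RNA and of RNA integrity in the Pdgfra difference were not tested.

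**Figure D3:**
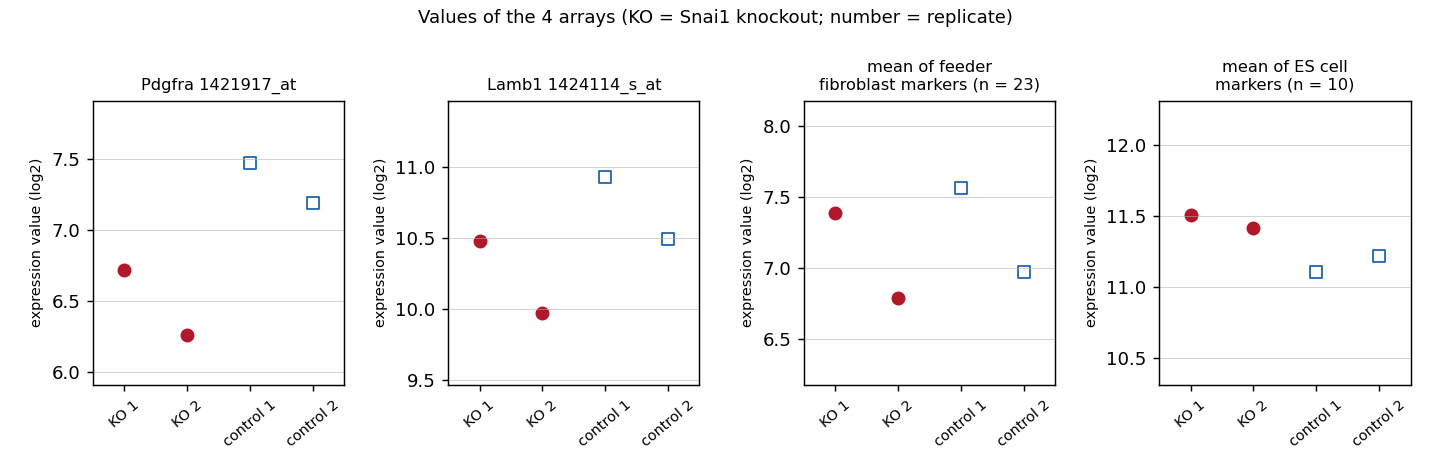
Log2 value on each array of the brightest Pdgfra and Lamb1 probe sets, the mean of 23 feeder fibroblast markers and the mean of 10 ES cell markers, with filled circles for Snai1 knockout and open squares for control arrays, each panel spanning 2 log2 units. Pdgfra, Lamb1 and the fibroblast mean are each higher in replicate 1 than in replicate 2 of the same group, and the ES cell marker mean is higher in both knockout arrays.

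Dab2 encodes an endocytic adaptor of the visceral and parietal endoderm, known as a target of Gata6. Its brightest probe set (1420498_a_at) was at 5.55 and 5.26 in knockout cells, against 5.63 and 5.85 in control cells. Both knockout arrays lay below both control arrays, but the difference of -0.33 ± 0.16 (SE) did not pass (adjusted p = 0.330). The other 3 probe sets lay within the Bacillus range on all arrays and differed by -0.27, -0.07 and -0.22, so all 4 differences were negative. None of the 4 intervals excluded 0.

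Promoter windows of RefSeq (250 bases before to 50 bases after a transcript start, build GRCm38.p6) were used for 5 of the 10 genes, in 8 windows. Member windows on a single chromosome were skipped, so a gene not searched here may still have a window. The shares over all windows had no such rule. Windows were used for Foxa2, Pdgfra, Dab2, Lamb1 and Afp, and not for Gata6, Gata4, Sox17, Sox7 or Lama1. Foxa2 and Dab2 had more than 1 window each, so the 8 windows do not stand for 8 genes. The 8 windows were searched on both strands for the Snail E-box CAGGTG, the letters the Snail zinc fingers are known to bind, and for the GATA letters AGATAA or AGATAG or TGATAA or TGATAG. Matches can overlap, and the E-box and a GATA match can share letters. The E-box was in 0 of the 8 windows, against 20.2% of all 32851 windows of this length, and a GATA match in 2, against 29.8% of all windows. A match describes letters and not a bound site, and its absence says nothing about binding elsewhere. The Dab2 window with a match and the Pdgfra window are shown, since these are the 2 genes whose probe sets all had negative differences. GATA matches are in capitals, and the Pdgfra window held neither motif.
Dab2, chr15:6299539-6299838, plus strand: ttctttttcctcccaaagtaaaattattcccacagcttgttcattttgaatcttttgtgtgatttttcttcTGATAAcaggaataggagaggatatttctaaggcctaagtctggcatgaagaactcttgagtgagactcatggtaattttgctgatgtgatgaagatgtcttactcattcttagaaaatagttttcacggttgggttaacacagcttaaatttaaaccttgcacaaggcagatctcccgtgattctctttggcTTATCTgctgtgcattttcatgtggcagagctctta
Pdgfra, chr5:75152001-75152300, plus strand: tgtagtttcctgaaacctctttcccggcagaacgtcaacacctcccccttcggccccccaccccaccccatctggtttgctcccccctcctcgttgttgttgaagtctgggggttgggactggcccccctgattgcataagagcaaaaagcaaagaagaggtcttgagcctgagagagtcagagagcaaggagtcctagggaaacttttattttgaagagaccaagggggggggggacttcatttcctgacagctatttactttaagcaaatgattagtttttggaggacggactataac

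The basement membrane genes Lama1 and Lamb1 each had at least 1 probe set above the Bacillus range on all arrays. Lama1 and Lamb1 encode the alpha and beta chains that join the gamma chain of Lamc1 into laminin-111, the first laminin of the embryo and a main product of parietal endoderm. Lama1 (1418153_at) was at 6.75 and 6.60 in knockout cells, against 6.32 and 6.56 in control cells. The lower knockout array exceeded the higher control array by a small margin, and the difference of 0.23 ± 0.15 (SE) did not pass (adjusted p = 0.461).

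Lamb1 had 3 probe sets above the Bacillus range on all arrays, and they did not point the same way. The brightest (1424114_s_at) was at 10.48 and 9.97 in knockout cells, against 10.93 and 10.49 in control cells, a difference of -0.48 ± 0.23 (SE, adjusted p = 0.318). The knockout arrays lay below the control arrays only just, since knockout replicate 1 and control replicate 2 were nearly equal. The next (1424113_at) was at 7.42 and 6.69 in knockout cells, against 7.62 and 7.21 in control cells, with overlap, and differed by -0.36 ± 0.27 (SE).

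The third Lamb1 probe set (1451241_at) was at 5.96 and 5.51 in knockout cells, against 5.48 and 5.51 in control cells, and differed by 0.24 ± 0.18 (SE). The spread between replicates of 1 group, up to 0.73 for 1424113_at in the knockout, was as large as the differences between groups. The direction of the spread was that of the fibroblast markers for the 2 brighter probe sets, higher in replicate 1 in both groups, and fibroblasts are known to make this chain. The parts of feeder cells and of RNA integrity in the Lamb1 values were not tested.

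Lamc1, the partner chain, was at 8.84 and 8.28 in knockout cells, against 8.12 and 7.89 in control cells (0.55 ± 0.21, SE, adjusted p = 0.224). The 3 chains of laminin-111 thus had no call, and their brightest probe sets had differences of 0.23, -0.48 and 0.55. Among the 8 measured laminin chains other than Lama1 and Lamb1, none passed in the fit of all probe sets. Of all probe sets 0.546% passed. The largest difference was that of Lama5, an alpha chain of epithelial basement membranes, at 8.18 and 8.27 in knockout cells, against 7.47 and 7.62 in control cells (0.68 ± 0.13, SE, adjusted p = 0.0712, and 0.0456 with each gene by its brightest probe set).

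Afp encodes alpha-fetoprotein, a serum protein secreted by mature visceral endoderm and fetal liver. Of its 5 probe sets, 4 lay within the Bacillus range on all arrays, and their differences ran from -0.21 to 0.09. The brightest (1416646_at) was at 4.69 and 4.77 in knockout cells, against 4.42 and 4.45 in control cells, a difference of 0.30 ± 0.12 (SE, adjusted p = 0.262) with no overlap between groups. Of these 4 values only that of knockout replicate 2 reached the upper end of the Bacillus range.

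The other genes of the extraembryonic endoderm gave a like picture. Of 33 measured genes, none passed in either direction (0.546% of all probe sets did), and 6 had an unadjusted p under 0.05 (18.2%, against 19.5% of all probe sets). With each gene by its brightest probe set 2 passed, Apoe and Cited1, both higher in the knockout, against 4.14% of all genes. Cited1 was at 4.87 and 4.66 in knockout cells, against 3.94 and 4.06 in control cells. All of these values but that of knockout replicate 1 lay within the Bacillus range. The 33 genes had a median difference of 0.01, against -0.02 for the brightest probe sets of all genes. The largest difference was that of Apoe, which encodes a lipid carrier protein made by many cell types, at 11.17 and 11.22 in knockout cells, against 9.83 and 10.37 in control cells (1.09 ± 0.20, SE, adjusted p = 0.0637, and 0.0386 with each gene by its brightest probe set). The 13 visceral endoderm genes had a median difference of 0.03, the 15 parietal endoderm and matrix genes 0.07 and the 5 transcription factors -0.20. Of the visceral endoderm genes 5, and of the transcription factors 1, lay within the Bacillus range on all arrays. All 15 parietal endoderm and matrix genes had at least 1 array above it, many of them matrix genes that fibroblasts also make.

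The list of FGF4 induction and platelet-derived growth factor ligands had 1 call among 21 measured genes in the fit of all probe sets. It holds ligands, receptors, signal transducers and feedback genes. Of all probe sets 0.546% passed. With each gene by its brightest probe set the list had 3 calls, all lower in the knockout, against 4.14% of all genes. Its median difference was -0.10. Of the 21, 8 had an unadjusted limma p under 0.05 (38.1%, against 19.5% of all probe sets). Both knockout arrays lay above both control arrays for 6 of the 21 and below them for 6. Over all probe sets these shares were 23.5% and 26%. Etv4, Fgfr1 and Map2k2 were among those above (0.61, 0.59 and 0.56), and none of these passed in either fit. Fgfr2, an FGF receptor that carries the FGF4 signal in primitive endoderm, was at 6.75 and 6.77 in knockout cells, against 7.67 and 7.73 in control cells by its brightest probe set. It fell by 0.94 on the log2 scale (SE 0.12, limma adjusted p = 0.0483, 1 of 21 genes lower and 0 higher). The call was lost with an intensity trend in the variance model (limma adjusted p = 0.0640). It was lost after removal of the trend with gene span and expression level together (-0.81, limma adjusted p = 0.0557). The call was also lost without each of the 4 arrays, where the difference ran from -0.97 to -0.91. Its 2 other probe sets, in or near the Bacillus range, differed by -0.20 and -0.10. Pdgfc, which encodes a ligand of the Pdgfra receptor, was at 8.35 and 8.76 in knockout cells, against 9.46 and 9.83 in control cells (-1.09 ± 0.20, SE, adjusted p = 0.0654, and 0.0401 by brightest probe set). Dusp6, a phosphatase of ERK that is induced by FGF signalling, was at 9.57 and 9.45 in knockout cells, against 10.15 and 10.39 in control cells (-0.76 ± 0.14, SE, adjusted p = 0.0682, and 0.0441 by brightest probe set). The groups did not overlap for either gene. Nanog, the epiblast factor that represses Gata6, was at 11.53 and 11.25 in knockout cells, against 10.46 and 10.45 in control cells (0.94 ± 0.15, SE, adjusted p = 0.0566, and 0.0340 with each gene by its brightest probe set). The Actb gap differed by -2.04 between the same arrays, and its part in these differences was not tested.

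Close relatives of the members were also measured. None of 19 relatives passed in the fit of all probe sets, against 0.546% of all probe sets, and their median difference was -0.07. With each gene by its brightest probe set 1 relative passed, Lama5, higher in the knockout, against 4.14% of all genes. The other GATA factors (Gata1, Gata2, Gata3 and Gata5) had differences between -0.10 and -0.03 by their brightest probe sets, with all 4 overlapping between groups. A dimmer Gata2 probe set was at 4.94 and 4.90 in knockout cells, against 4.80 and 4.30 in control cells (0.37, adjusted p = 0.354), without overlap. Sox18, the third SoxF gene, was within the Bacillus range on all arrays. Pdgfrb, the beta receptor for platelet-derived growth factor and a fibroblast marker, was at 5.08 and 5.18 in knockout cells, against 5.07 and 4.70 in control cells by its brightest probe set (0.25 ± 0.16, SE, adjusted p = 0.486), and the other probe set differed by -0.92 with overlapping groups (adjusted p = 0.337).

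The lists that separate primitive endoderm from neighbouring cell types had 0 genes past the threshold in the fit of all probe sets. Of all probe sets 0.546% passed. Of the 10 ES cell markers 4 had an unadjusted limma p under 0.05 (40%, against 19.5% of all probe sets). Both knockout arrays lay above both control arrays for 5 of them and below for 0, against 23.5% and 26% of all probe sets. For the 9 definitive endoderm and streak genes these counts were 2 (22.2%), 4 and 2. Among 10 ES cell markers the largest difference was that of the nuclear receptor Esrrb, at 10.48 and 9.92 in knockout cells, against 9.09 and 9.20 in control cells (1.05 ± 0.20, SE, adjusted p = 0.0717). With each gene by its brightest probe set it passed (adjusted p = 0.0426), as did Nanog and Pou5f1, all 3 higher in the knockout, against 4.14% of all genes. The other markers did not pass and ran from -0.38 (Fgf4) to 0.43 (Gdf3). Sox2, Klf4, Zfp42 and Tdgf1 differed by -0.02, -0.03, 0.02 and 0.02. The median difference of the 10 markers was 0.08. Of the other Esrrb probe sets, one differed by 0.10, and one was at 5.68 and 5.54 in knockout cells, against 4.89 and 4.86 in control cells (0.74). Among 9 genes of definitive endoderm and primitive streak the largest difference was that of Trh, which encodes thyrotropin-releasing hormone. Trh was at 11.92 and 11.17 in knockout cells, against 10.06 and 9.77 in control cells (1.63 ± 0.26, SE, adjusted p = 0.0582, and 0.0320 with each gene by its brightest probe set). The streak and organizer gene Gsc, which also marks definitive endoderm, lay within the Bacillus range on all arrays.

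**Figure D4:**
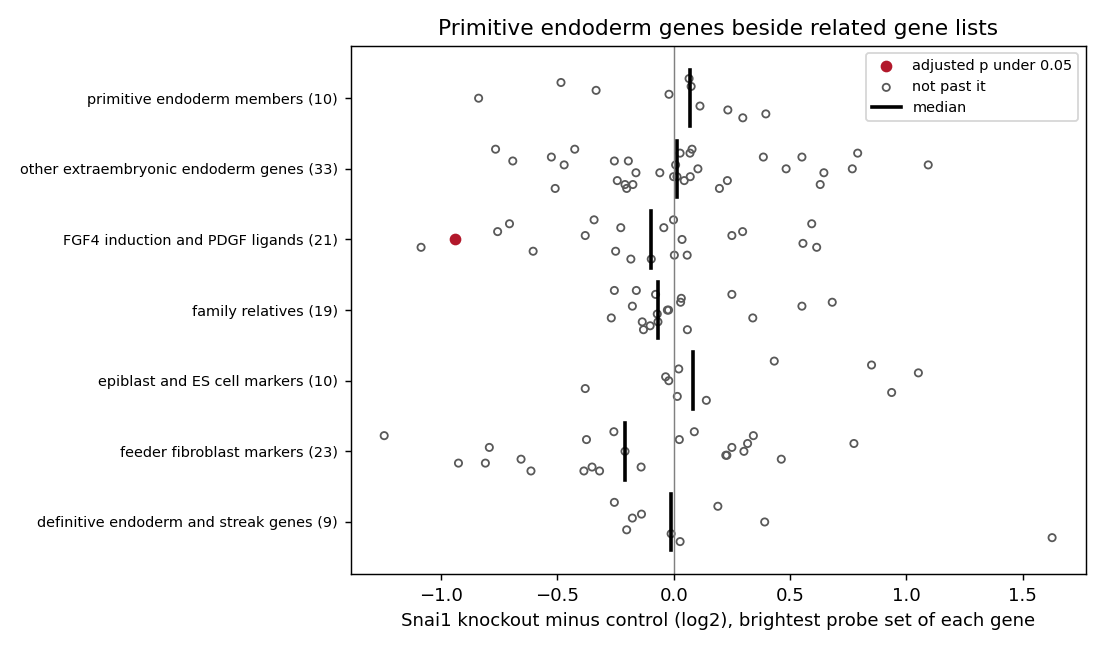
Log2 difference (Snai1 knockout minus control) of the brightest probe set of each gene in the primitive endoderm set and 6 related lists, with the number measured in brackets, a vertical bar for each list's median and a filled point for adjusted p under 0.05. The primitive endoderm genes spread from -0.84 (Pdgfra) to 0.40 (Sox17) around a median of 0.07, and Fgfr2 at -0.94 is the single filled point.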

How the data were processed

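RNA from 2 Snai1 knockout and 2 control ES cell samples was hybridised to single-colour Affymetrix arrays, after labelling from the 3' end per the labels' protocols. The authors deposited 1 value on the log2 scale for each probe set and array. The submitters' processing notes name RMA and limma, without versions or settings, and no genome build is given in the sources used here. Array medians lay between 4.91 and 4.95, and the values were used as deposited. RMA brings the arrays' distributions close together, so a change common to most genes may not show. The number of arrays limits the precision.

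Probe sets were named through the platform annotation of GEO (34958 with 1 symbol, 932 with several, 9211 with none), checked by gene ID against RefSeq (0 symbols changed). All 45037 probe sets other than 64 controls were fitted in limma 3.58.1 (lmFit, eBayes; R 4.3.3), without covariates, with two-sided p-values adjusted by Benjamini-Hochberg and a threshold of 0.05. The fit had 2 residual and 4.11 prior degrees of freedom and was tested on simulated data. A second fit took the brightest probe set of each of 18193 genes, and lists were read by that probe set from the fit of all probe sets. Lists with genes not analysed here are counted by their measured members. SE is limma's moderated standard error. Alternatives covered feature level, filter, normalization, variance model, fold minimum, replicate block, gene span trend and arrays left out. The gene span trend was fitted by loess (span 0.3) on gene span and expression level together. The members, lists and naming rule (all members; up to 4 passing genes of each other list, or else its largest difference; Nanog, Lamc1 and Pdgfrb always) were chosen with earlier results of these data known. Further probe sets of named genes, Gsc, Sox18, Pdgfc, Dusp6, Pou5f1, Ccl2, Cited1 and the GATA relatives were named after their values were seen. So were Etv4, Fgfr1, Map2k2, Gdf3, Fgf4 and the values of Sox2, Klf4, Zfp42 and Tdgf1.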

Additional observations from a re-analysis of the deposited data

How the results depend on the processing

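The count of 0 primitive endoderm probe sets past the threshold was also 0 under 14 of 15 alternatives. The exception was the replicate block, with which 1 probe set passed: the brightest of Pdgfra (-0.84, adjusted p = 0.0413). Not all of the 14 could have differed. A fold minimum can only remove calls, so its 0 was fixed in advance. The filter on the mean kept 8 of the 27 probe sets. The fits by brightest probe set and by the mean of a gene's probe sets tested 1 value for each of the 10 genes. The fits with an array left out had fewer samples to call from, so their 0 adds little. The labels do not say that a replicate number marks a shared batch, and with 2 pairs of arrays the data do not settle it: the deviations of same-numbered arrays correlated at 0.11 over all probe sets and at 0.16 over the 16281 with a mean of 6 or more. With the block, 1536 probe sets passed over the whole array, against 246 without it. The whole-array count was 754 with each gene by its brightest probe set, 588 after a further quantile normalization and 386 with the gene span trend taken out, and ran from 0 to 173 with 1 array left out. The cause of the shifts under the first 4 of these settings was not tested. The smaller counts rest on fewer samples, and the single array of a group was taken to vary as the other group did. Of the 27 differences, 16 kept their sign under every alternative run for them and 11 changed it under at least 1, none of these past the threshold. The 3 Pdgfra differences ran from -1.07 to -0.61, from -0.65 to -0.32 and from -0.22 to 0.02. For probe sets within the Bacillus range, signal over background limits what a difference can show.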
